A study of Mus musculus with 48 samples.

Results

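Oligodendrocyte precursor cells are the dividing glia that give rise to the myelin-forming oligodendrocytes. The genes described here are Pdgfra, Cspg4, Olig1, Olig2, Sox10, Gpr17, Neu4, C1ql1 and Matn4, which mark these cells and their first descendants. They were chosen by symbol, and all 9 were found among the 24421 gene symbols listed in each of the 6 deposited tables. RNA-seq had been made from mouse astrocytes of 3 forebrain regions, the cortex, the hippocampus and the olfactory bulb, in 48 libraries and 15 groups. These libraries are labelled as astrocytes, so the precursor genes are read here as RNA present in an astrocyte preparation.

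In each region, 1 table covered development at postnatal day (P) 1, P7 and P14, with 3 libraries per age except 4 in cortex P14. The labels of these libraries give an age and a region, and no genotype or treatment. The other table of each region covered P28 mice labelled Gabbr1 control or Gabbr1 cKO, a conditional knockout of a subunit of the GABA-B receptor. There were 4 control and 4 cKO libraries in cortex, 2 control and 4 cKO libraries in hippocampus, and 3 of each in olfactory bulb. Tamoxifen, the drug that switches on an inducible Cre recombinase, is named as the treatment of both genotypes in the hippocampus and olfactory bulb libraries. In cortex it is named for control replicates 3 and 4 and cKO replicate 4, which were deposited in a second round, and not for the other 5 libraries. The labels used here do not give the strain, sex, Cre driver or the way astrocytes were separated from other cells, and do not say whether animals were pooled. They also do not say that libraries of a group came from separate animals, so a p-value measures only the spread between these libraries.

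Values are normalized read counts, each the number of reads of a gene divided by 1 factor per library. Reads per library ranged from 1773226 in olfactory bulb P14 to 15008466 in cortex P14. A pair of P28 libraries stood apart in composition: the ribosomal RNA precursor Rn45s took 0.594% of reads in hippocampus cKO replicate 2 and 0.476% in olfactory bulb control replicate 2, against at least 13.7% in every other library. Summed over 10 astrocyte genes, including Aldh1l1, Aqp4 and Slc1a2, the normalized count was at least 5043 in every library, the lowest being an olfactory bulb P1 library. Each of those 10 genes had reads in every group. At P1, 6 genes of neuroblasts and interneuron progenitors, such as Dcx and Dlx2, summed to 24862 to 27312 in olfactory bulb. The 10 astrocyte genes summed to 5043 to 7167 there. These ranges were 13972 to 20480 and 13833 to 15917 in hippocampus P1, and 7139 to 11853 and 21366 to 28242 in cortex P1. Gabbr1 was lower in each cKO library than in each control of its region: 89.8 to 211 against 927 to 1930 in cortex, 152 to 380 against 780 to 824 in hippocampus, and 63.6 to 99.5 against 184 to 318 in olfactory bulb.

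As background, the lineage runs from dividing precursors through committed precursors to myelinating cells, and its genes mark successive steps. Pdgfra encodes the receptor for the growth factor PDGF-A, which keeps precursors dividing, and Cspg4 encodes their surface proteoglycan NG2. Olig1 and Olig2 are basic helix-loop-helix transcription factors and Sox10 is an HMG-box factor, and these set up and maintain the lineage. Gpr17 is a G protein-coupled receptor that marks committed precursors, Neu4 is a sialidase, C1ql1 is a secreted C1q-like protein and Matn4 is a matrix protein. Several are shared with other cells: Pdgfra is also made by fibroblasts, Cspg4 by pericytes, Olig1 and Olig2 by progenitors, and Olig2 by some astrocytes.

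Positions are given in GRCm38 from GENCODE release M21, since the submitters' processing notes name mm10. Olig2 lies on chromosome 16 from 91225457 to 91228677 and Olig1 on the same strand from 91269772 to 91271933, with 41094 bases between them. Pdgfra spans chromosome 5 from 75152292 to 75198215 and Cspg4 chromosome 9 from 56865033 to 56899870. Sox10 is on chromosome 15 from 79154908 to 79165240, Neu4 on chromosome 1 from 94020451 to 94028334, C1ql1 on chromosome 11 from 102939264 to 102946688 and Matn4 on chromosome 2 from 164389393 to 164405160. Whether counting used strand is not given in the sources used here, so reads of overlapping genes cannot be told apart. Exon bases shared with another annotated gene came to 188 of 5195 for Gpr17 (with Lims2), 157 of 2162 for Olig1 (with Gm15966) and 149 of 5174 for Matn4 (with Rbpjl). For Pdgfra the overlaps, of 456, 166 and 30 of its 10024 exon bases, were with Gm42802, Gm42803 and Mir7025.

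RefSeq promoter sequences (GRCm38.p6, 250 bases before to 50 after the start) were at hand for 5 of the 9 genes. Those of Pdgfra, Cspg4 and Olig2 are shown. In the results below the first pair share a P7 peak in hippocampus and olfactory bulb, and the course of Olig2 differs between regions. Capitals mark an E-box (CANNTG, the class of site that Olig proteins bind) or the SOX core AACAAT, searched on both strands. All 3 lie on the plus strand, at chr5:75152001-75152300, chr9:56864854-56865153 and chr16:91225300-91225599.
Pdgfra: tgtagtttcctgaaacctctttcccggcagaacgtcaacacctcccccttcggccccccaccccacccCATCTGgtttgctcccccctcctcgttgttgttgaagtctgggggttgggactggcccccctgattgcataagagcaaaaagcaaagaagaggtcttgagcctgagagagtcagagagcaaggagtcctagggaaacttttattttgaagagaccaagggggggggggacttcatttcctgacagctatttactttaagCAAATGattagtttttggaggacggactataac
Cspg4: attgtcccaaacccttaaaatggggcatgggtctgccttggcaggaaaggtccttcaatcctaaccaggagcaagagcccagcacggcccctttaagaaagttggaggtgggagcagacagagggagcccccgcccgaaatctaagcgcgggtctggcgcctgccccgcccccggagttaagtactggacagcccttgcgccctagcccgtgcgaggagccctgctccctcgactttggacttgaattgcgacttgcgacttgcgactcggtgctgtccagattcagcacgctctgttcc
Olig2: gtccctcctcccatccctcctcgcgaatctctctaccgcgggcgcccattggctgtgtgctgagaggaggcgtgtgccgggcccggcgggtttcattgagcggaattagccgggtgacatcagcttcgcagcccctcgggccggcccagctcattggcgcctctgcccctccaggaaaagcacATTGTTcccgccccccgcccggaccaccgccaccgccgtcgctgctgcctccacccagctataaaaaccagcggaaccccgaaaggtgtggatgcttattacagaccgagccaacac
The Pdgfra window held 2 E-boxes and no SOX core, the Cspg4 window neither, and the Olig2 window 1 SOX core and no E-box. The 2 motifs did not overlap in these windows. Of 32851 promoter windows of this length, 72.3% held an E-box and 10.7% a SOX core, so a match is a description of these letters. GC content was 51% for Pdgfra, 60% for Cspg4 and 65% for Olig2.

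The first comparison followed the genes over P1, P7 and P14 in each region. Pdgfra was highest at P7 in every region, with each P7 library above all P1 and P14 libraries of its table. Cspg4 had the same peak without overlap in hippocampus and olfactory bulb. Gpr17 rose from P1 to P7 everywhere and stayed above its P1 level at P14. Olig1 rose at both steps in olfactory bulb, where its P14 level was 4.23 above P1 on the log2 scale. From P1 to P7, 5 of 8 tested genes rose in cortex, 4 of 6 rose in hippocampus and 6 of 6 rose in olfactory bulb, against 15.6%, 11.2% and 7.59% of all genes tested, and none of these tested members fell, against 18.1%, 6.92% and 2.98%. Tests used limma on log2(normalized count + 1) for genes with a mean of at least 10 over a table. Hippocampal Sox10 (means 3.02 at P1 and 1.67 at P14) and olfactory bulb Cspg4 (6.43 and 9.66) reached that mean only through P7. A gene counts as changed when its p, adjusted over all genes of the table by the Benjamini-Hochberg method, is under 0.05. In bulk samples, fewer cells of a type and less RNA per cell cannot be told apart.

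**Figure D1:**
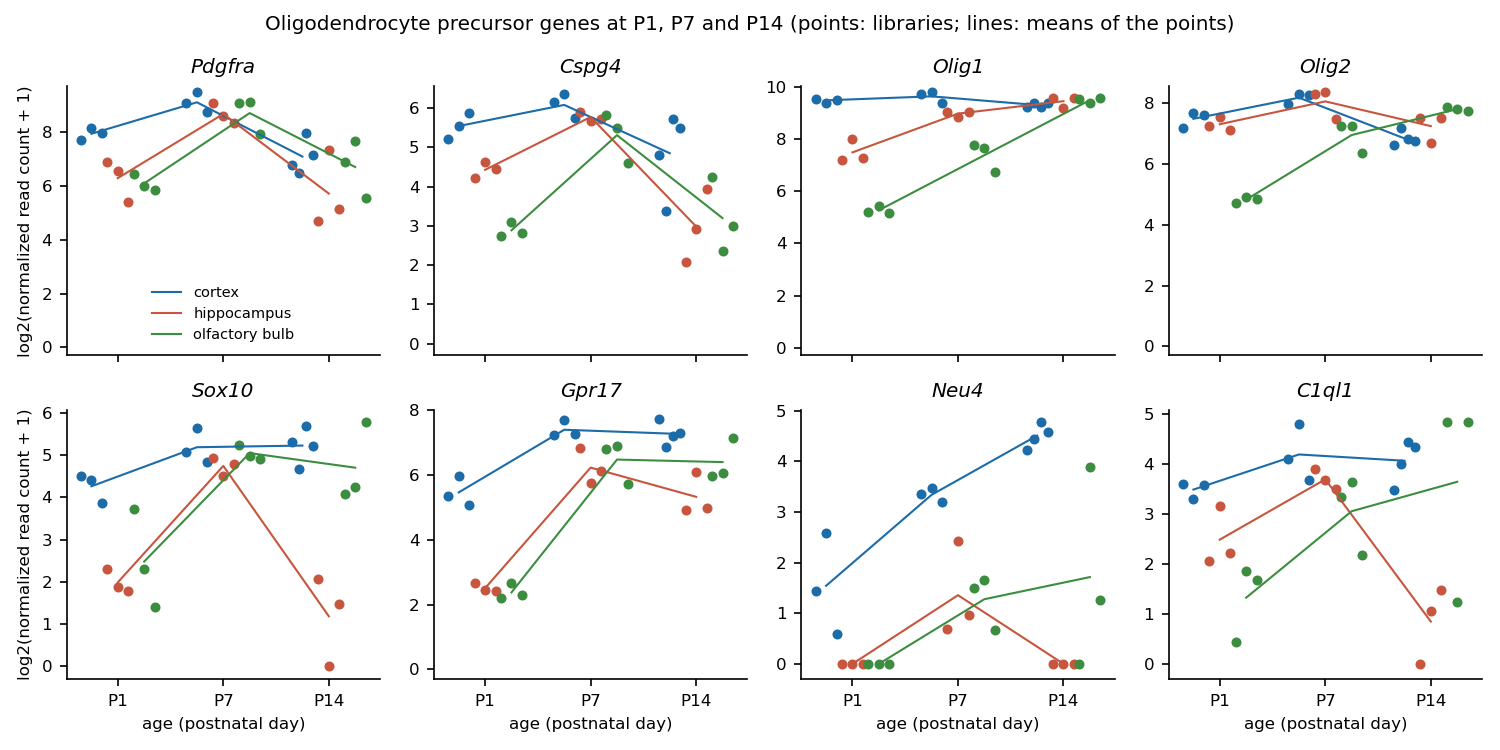
log2(normalized read count + 1) of 8 precursor genes (vertical axis) at P1, P7 and P14 (horizontal axis) in cortex, hippocampus and olfactory bulb, with each point a library and lines joining the means of the points. Pdgfra peaks at P7 in the 3 regions, Olig1 climbs most in olfactory bulb, and Neu4 rises at each age in cortex.

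The receptor Pdgfra had normalized counts of 205, 282 and 251 in the cortex P1 libraries, 542, 710 and 433 in the P7 libraries, and 109, 89.3, 247 and 140 at P14. The P7 libraries were above all others, and P14 replicate 3 lay within the P1 range. Pdgfra rose on the log2 scale by 1.17 from P1 to P7 (SE 0.30, limma adjusted p 0.00787) and fell by 2.02 from P7 to P14 (SE 0.28, limma adjusted p 5.6e-05). In hippocampus Pdgfra was 118, 92.7 and 41.8 at P1, 537, 389 and 324 at P7, then 24.7, 160 and 34.0 at P14. The peak at P7 again stood clear, and P14 replicate 2 was higher than the other P14 libraries and every P1 library. Pdgfra rose there by 2.38 (SE 0.59, limma adjusted p 0.0153) and fell by 2.96 (SE 0.59, limma adjusted p 0.00332). The hippocampal rise lost its call without P1 replicate 3, at 1.95 (limma adjusted p 0.0748), and without P7 replicate 1, at 2.19 (limma adjusted p 0.0658).

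In olfactory bulb Pdgfra was 85.7, 63.0 and 56.3 at P1, 536, 551 and 245 at P7, then 117, 203 and 45.8 at P14. The P7 libraries were highest, and P14 libraries lay on both sides of the P1 range. Pdgfra rose by 2.61 (SE 0.48, limma adjusted p 0.006) and then changed by -2.01 (SE 0.48, limma adjusted p 0.00551). Between P1 and P14 Pdgfra was lower in cortex (log2 difference -0.85, limma adjusted p 0.0156) and did not pass the test in hippocampus (-0.57, limma adjusted p 0.449) or olfactory bulb (0.61, limma adjusted p 0.298). Leaving out 1 P14 library gave a call in each of the latter: -1.38 without hippocampus replicate 2 (limma adjusted p 0.0144) and 1.19 without olfactory bulb replicate 3 (limma adjusted p 0.0236). The cortex call was lost without P1 replicate 2, at -0.74 (limma adjusted p 0.061). Every P7 library lay above every P1 and P14 library for 5.49% of all genes tested in cortex, for 3.87% in hippocampus and for 6.18% in olfactory bulb. The members with this pattern were Pdgfra and Olig2 in cortex, Pdgfra, Cspg4 and Sox10 in hippocampus, and Pdgfra and Cspg4 in olfactory bulb. Hippocampal Sox10 and olfactory bulb Cspg4 were tested only because of their P7 values, so their place here is a description.

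Cspg4, the NG2 proteoglycan, was 35.8, 45.8 and 57.5 at P1, 69.8, 80.4 and 52.6 at P7, and 26.9, 9.43, 52.0 and 43.6 at P14 in cortex. All P7 libraries were above all P14 libraries, while P1 and P7 overlapped. The log2 difference was 0.54 for P7 minus P1 (SE 0.47, limma adjusted p 0.407) and -1.23 for P14 minus P7 (SE 0.44, limma adjusted p 0.0334). That call was lost without P7 replicate 1, P7 replicate 2 or P14 replicate 1, with log2 differences of -1.20, -1.10 and -1.22. Without P14 replicate 2, the lowest of its group, it was kept at a smaller -0.74 (limma adjusted p 0.047). In hippocampus Cspg4 was 17.5, 23.6 and 20.9 at P1, 59.2, 50.05 and 52.0 at P7, then 3.22, 6.62 and 14.3 at P14. The 3 ages did not overlap there, although the P14 values rest on 3, 6 and 8 reads. It fell by 2.79 from P7 to P14 (SE 0.52, limma adjusted p 0.00211), and its P7 minus P1 difference of 1.35 did not pass (SE 0.52, limma adjusted p 0.103), while it did by DESeq2 (1.40, adjusted p 0.00758), with only those ages in the fit (limma adjusted p 8.86e-04), after quantile normalization (limma adjusted p 0.0192) and with a pseudocount of 8 (limma adjusted p 0.0299).

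In olfactory bulb Cspg4 was 5.74, 7.49 and 6.07 at P1, 55.9, 44.3 and 23.1 at P7, then 17.9, 4.14 and 6.94 at P14, the last from 9, 3 and 5 reads. It rose by 2.42 (SE 0.56, limma adjusted p 0.0194) and then changed by -2.11 (SE 0.56, limma adjusted p 0.00986). The rise lost its call without any 1 of the P1 libraries, P7 replicate 1 or P7 replicate 2, at log2 differences from 2.16 to 2.52, and the fall without P7 replicate 1, at -1.85 (limma adjusted p 0.0514). Between P1 and P14 Cspg4 was called in hippocampus and in neither other region (-1.44, SE 0.52, limma adjusted p 0.0363). It was lost without P14 replicate 1 (-0.99, limma adjusted p 0.0668) and without each P1 library in turn (-1.55, -1.35 and -1.43).

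Because pericytes also make Cspg4 and fibroblasts Pdgfra, their marker lists were measured beside these genes, together with endothelial genes. From P1 to P7 in hippocampus 2 of 5 tested pericyte and mural genes (Rgs5, Abcc9), 1 of 7 fibroblast and meningeal genes (Igf2) and 3 of 5 endothelial genes (Cldn5, Pecam1, Tek) rose. In olfactory bulb 2 of 5 pericyte genes (Rgs5, Vtn), 1 of 7 fibroblast genes (Igf2) and 2 of 5 endothelial genes (Flt1, Tek) rose over that step, and in cortex 1 of 5 pericyte genes (Pdgfrb) rose and no fibroblast or endothelial gene passed. The summed pericyte list went from 136 to 259 at P1 to 483 to 754 at P7 in hippocampus, and from 82.5 to 100.4 to 283 to 314 in olfactory bulb, without overlap. From P7 to P14 in hippocampus 3 of 5 tested pericyte and mural genes (Rgs5, Abcc9, Anpep), 3 of 7 fibroblast and meningeal genes (Dcn, Col3a1, Slc6a13) and 5 of 5 endothelial genes fell. The summed pericyte list was 143 to 242 at P14, under its P7 range, and Acta2, Anpep and the endothelial Cldn5 and Ly6c1 were at 0 in every P14 library. In cortex none of 5 pericyte, 7 fibroblast and 6 endothelial genes changed over the same step. In olfactory bulb 1 pericyte gene (Rgs5) and 3 of 5 endothelial genes rose while Pdgfra and Cspg4 fell. The summed fibroblast list spanned 53.7 to 1652 in cortex P1, lowest in replicate 1, which also had the lowest Pdgfra and Cspg4 of that group. The part of these cells in the Pdgfra and Cspg4 differences was not tested.

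Other genes of the PDGF pathway, its ligands and the receptor Pdgfrb, were counted beside Pdgfra. From P1 to P7, 2 of 4 tested family genes rose in cortex (Pdgfrb, Pdgfd), 2 of 4 in hippocampus (Pdgfa, Pdgfc) and none of 4 in olfactory bulb, and Pdgfa fell in cortex. Pdgfrb, the receptor of pericytes, went from a mean of 88.7 to 151 in cortex (log2 difference 0.88, SE 0.29, limma adjusted p 0.0307) and was 149 at P14. Pdgfa, the ligand of Pdgfra, went from a mean of 61.5 to 30.7 over the same step (log2 difference -1.03, SE 0.34, limma adjusted p 0.0315). From P7 to P14 Pdgfc, another ligand of Pdgfra, rose in cortex (0.43, limma adjusted p 0.0496) and in hippocampus (0.87, limma adjusted p 0.0251), and in olfactory bulb Pdgfa fell while Pdgfd, a ligand of Pdgfrb, rose from a mean of 9.24 to 59.0 (2.87, SE 0.63, limma adjusted p 0.00348).

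The transcription factors took separate courses. In cortex Olig1 was 756, 679 and 730 at P1, 864, 900 and 664 at P7, and 599, 663, 607 and 680 at P14. These groups overlapped, and the log2 difference was 0.15 for P7 minus P1 (SE 0.12, limma adjusted p 0.329) and -0.33 for P14 minus P7 (SE 0.11, limma adjusted p 0.0207). Without P7 replicate 3 the first became a called rise, at 0.29 (limma adjusted p 0.0432). In hippocampus Olig1 was 147, 255 and 154, then 531, 468 and 522, then 772, 590 and 770. Its ages rose in order without overlap, by 1.49 from P1 to P7 (SE 0.21, limma adjusted p 4.00e-04) and by 1.97 from P1 to P14 (SE 0.21, limma adjusted p 1.36e-05), while the second step of 0.48 did not pass (limma adjusted p 0.105). Summed over the hippocampus P14 libraries, Olig1 had 1683 reads, Olig2 367, Pdgfra 187, Gpr17 105, Cspg4 17, Sox10 4 and C1ql1 2. Neu4 and Matn4 had 0. Which cells made the Olig1 RNA was not tested. In olfactory bulb Olig1 was 35.5, 42.7 and 35.3 at P1, 218, 202 and 105 at P7, and 751, 663 and 764 at P14. Both steps rose there, by 2.12 (SE 0.26, limma adjusted p 9.54e-04) and 2.11 (SE 0.26, limma adjusted p 8.14e-05).

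Olig2, its neighbour on chromosome 16, was 145, 204 and 194 at P1, 250, 320 and 309 at P7, and 98.0, 145, 112 and 107 at P14 in cortex. It rose by 0.70 to P7 (SE 0.18, limma adjusted p 0.00774) and changed by -1.34 to P14 (SE 0.16, limma adjusted p 2.2e-05), ending under P1 (-0.64, SE 0.16, limma adjusted p 0.00357). Hippocampal Olig2 was 153, 185 and 139, then 319, 335 and 179, then 184, 103 and 185. The ages overlapped, and the log2 differences of 0.75 (SE 0.29, limma adjusted p 0.106) and -0.81 (SE 0.29, limma adjusted p 0.0546) did not pass. The first passed with only P1 and P7 in the fit (limma adjusted p 0.0189), after quantile normalization (limma adjusted p 0.049) and by DESeq2 (adjusted p 0.0313). The second passed with a pseudocount of 8 (limma adjusted p 0.0457), a minimum mean of 50 (limma adjusted p 0.0442), quantile normalization (limma adjusted p 0.0316) and DESeq2 (adjusted p 0.0393). All these differences kept their direction, and without P7 replicate 3 both passed, at 1.04 (limma adjusted p 0.0374) and -1.10 (limma adjusted p 0.0183). Without P14 replicate 1 or P14 replicate 3 the second also passed, at -0.95 and -0.96. In olfactory bulb Olig2 was 25.5, 29.5 and 27.6, then 152, 152 and 81.3, then 235, 222 and 215, rising in order without overlap by 2.13 (SE 0.26, limma adjusted p 9.54e-04) and 0.85 (SE 0.26, limma adjusted p 0.0199). The second rise lost its call without P7 replicate 3, at 0.55 (limma adjusted p 0.0739).

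Sox10, the factor kept from precursor to myelinating cell, was 21.9, 20.1 and 13.6 at P1, 32.9, 48.7 and 27.6 at P7, and 39.0, 24.5, 50.5 and 36.3 at P14 in cortex. Both later ages lay above P1, by 0.92 (SE 0.32, limma adjusted p 0.0419) and 0.96 (SE 0.30, limma adjusted p 0.0129). The first call was lost without any 1 of P1 replicates 1 to 3, P7 replicate 1 or P7 replicate 2, at 0.70 to 1.05, and the second without P1 replicate 3, at 0.77 (limma adjusted p 0.0648). Hippocampal Sox10 was 3.92, 2.67 and 2.46 at P1, 29.6, 21.9 and 26.5 at P7, and 3.22, 0 and 1.79 at P14, where the 3 libraries held 4 reads in all. The P7 libraries stood above the rest, with a rise of 2.76 (SE 0.68, limma adjusted p 0.0143) and a difference of -3.56 from P7 to P14 (SE 0.68, limma adjusted p 0.00243). The rise lost its call without P1 replicate 2 (2.70, limma adjusted p 0.0535) or P1 replicate 3 (2.66, limma adjusted p 0.0629). Without any 1 of the P7 libraries Sox10 fell under the minimum mean and was not tested.

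In olfactory bulb Sox10 was 12.2, 3.96 and 1.65 at P1, 36.9, 30.7 and 29.1 at P7, and 15.9, 17.9 and 54.1 at P14. It rose by 2.57 to P7 (SE 0.64, limma adjusted p 0.0262) and stood 2.22 above P1 at P14 (SE 0.64, limma adjusted p 0.0118), while P14 overlapped P7. The rise to P7 lost its call without each left-out library other than P1 replicate 1, at 2.03 to 2.64, and the P14 difference without P1 replicate 3, at 1.69 (limma adjusted p 0.0536).

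Gpr17, the receptor of committed precursors, was 39.8, 61.2 and 32.8 at P1, 151, 206 and 152 at P7, and 213, 116, 146 and 156 at P14 in cortex. Both later ages were above every P1 library and overlapped each other. Its log2 rise from P1 to P7 was 1.93 (SE 0.25, limma adjusted p 5.58e-05), and the P14 minus P7 difference was -0.12 (limma adjusted p 0.692). In hippocampus Gpr17 was 5.34, 4.46 and 4.30, then 113, 52.6 and 68.1, then 29.0, 67.3 and 30.5. It rose by 3.72 (SE 0.48, limma adjusted p 2.21e-04), and P14 overlapped P7 and stayed 2.82 above P1 (SE 0.48, limma adjusted p 4.71e-04). Without P14 replicate 2 the P14 minus P7 difference became a called fall, at -1.29 (limma adjusted p 0.04) from -0.90 (limma adjusted p 0.175). In olfactory bulb Gpr17 was 3.58, 5.28 and 3.86, then 111, 118 and 52.2, then 61.6, 66.2 and 142. The rise to P7 was 4.10 (SE 0.43, limma adjusted p 3.80e-04), and P14 stood 4.02 above P1 (SE 0.43, limma adjusted p 1.84e-05).

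Neu4 was low. In cortex it was 1.70, 5.04 and 0.513 at P1, 9.23, 10.1 and 8.16 at P7, then 17.8, 20.8, 26.5 and 22.8 at P14. The ages rose in order without overlap, as 7.55% of all tested genes did in cortex, 9.25% did in hippocampus and 9.48% did in olfactory bulb, where the members with this order were Olig1, and Olig1 and Olig2, respectively. Neu4 rose by 1.80 to P7 (SE 0.50, limma adjusted p 0.0141) and by 2.97 from P1 to P14 (SE 0.47, limma adjusted p 8.93e-05), with a second step of 1.17 (SE 0.47, limma adjusted p 0.0534). The first rise lost its call without P1 replicate 3, at 1.32 (limma adjusted p 0.0554). The second step passed under TMM scaling (1.35, limma adjusted p 0.0277), edgeR (1.41, adjusted p 0.0382) and DESeq2 (1.44, adjusted p 0.0193), and likewise after quantile or median-ratio scaling, without the trend, with only those ages in the fit and with a pseudocount of 8 (0.80 to 2.10, limma adjusted p 0.00168 to 0.0307). Neu4 had no read in any hippocampus P1, hippocampus P14 or olfactory bulb P1 library, where 3 reads would be worth 1.07 to 1.84, 3.23 to 5.38 and 1.08 to 1.66 normalized counts, so it was not detectable at this depth. Hippocampus P7 held 1, 7 and 1 reads of it, and over development it was not tested outside cortex.

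Of the developmental tables C1ql1 was tested only in that of cortex, where it was 11.1, 8.82 and 11.0 at P1, 16.2, 27.1 and 11.8 at P7, and 10.2, 15.1, 20.8 and 19.2 at P14. Every P7 library was above every P1 library, and neither step passed (0.70, limma adjusted p 0.191, then -0.13, limma adjusted p 0.798). In hippocampus C1ql1 was 13.9, 11.9 and 10.4 at P7 and at most 1.79 at P14, the highest from 1 read. Matn4 was under the minimum mean in all 3 developmental tables, with at most 8.31 in any library, and was untested.

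**Figure D2:**
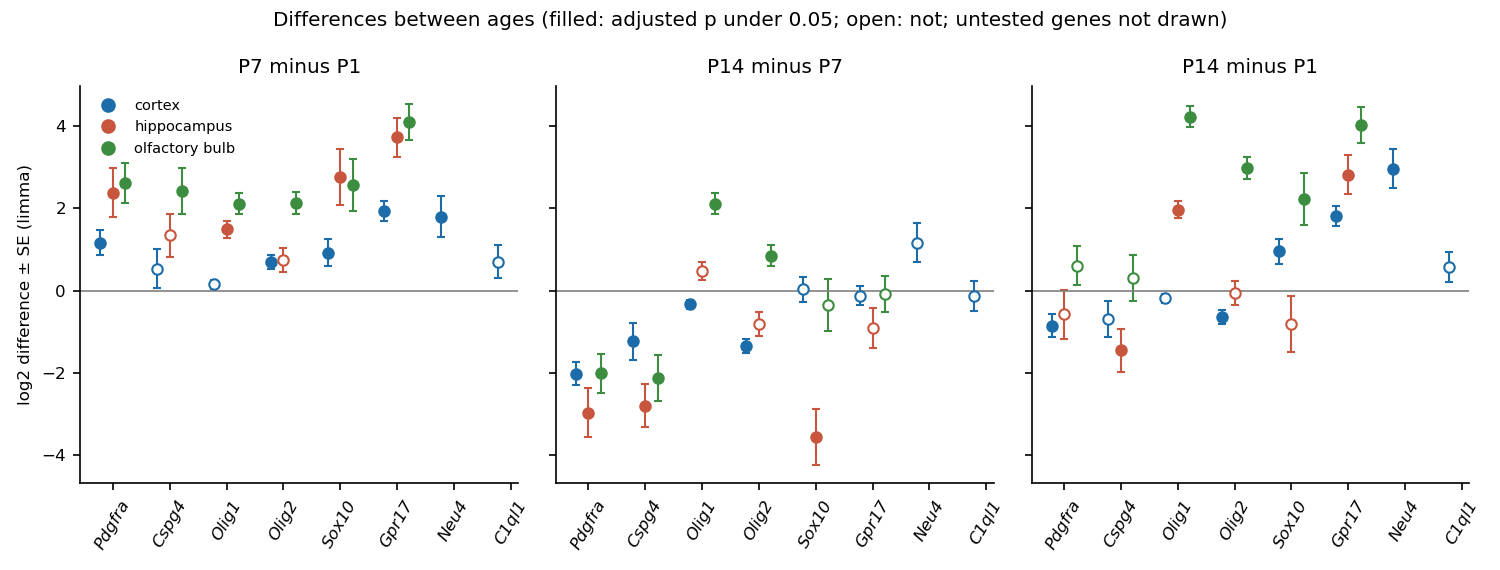
log2 difference between ages with its SE from limma (vertical axis) for each precursor gene tested (horizontal axis), by region, where filled circles have an adjusted p under 0.05. Differences from P1 to P7 are above 0 for every gene drawn, and Pdgfra and Cspg4 lie below 0 from P7 to P14 in each region.

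From P7 to P14 none of the tested genes rose and 4 fell in cortex (Pdgfra, Cspg4, Olig1, Olig2), none rose and 3 fell in hippocampus (Pdgfra, Cspg4, Sox10), and 2 rose (Olig1, Olig2) and 2 fell (Pdgfra, Cspg4) in olfactory bulb. Of all genes tested 18.6% rose and 31.3% fell in cortex. The shares were 12.5% and 17.7% for hippocampus and 20.4% and 26.6% for olfactory bulb. From P1 to P14, 3 rose (Sox10, Gpr17, Neu4) and 2 fell (Pdgfra, Olig2) in cortex, 2 rose (Olig1, Gpr17) and 1 fell (Cspg4) in hippocampus, and 4 rose (Olig1, Olig2, Sox10, Gpr17) and none fell in olfactory bulb. The shares of all tested genes were 24.0% and 40.3%, 21.0% and 28.5%, and 24.8% and 31.4%. The cortical and hippocampal counts were thus not far from the share over all genes. Leaving out 1 library moved the number called from 5 to 3 for cortex P7 against P1 (P1 replicate 3), from 4 to 2 for cortex P14 against P7 (P7 replicate 1, P7 replicate 2 or P14 replicate 1), and from 4 to 2 for hippocampus P7 against P1 (P1 replicate 3 or P7 replicate 1). These comparisons share libraries, P7 being the end of 1 step and the start of the next.

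Markers of other cells moved over the same step. From P7 to P14 in cortex 6 of 6 tested neuroblast and interneuron progenitor genes, 7 of 7 cycling genes and 7 of 9 neuron genes fell, and 6 of 6 microglia genes rose. In hippocampus 4 of 6 neuroblast, 3 of 8 cycling, 7 of 9 neuron and 1 of 3 microglia genes fell. Olfactory bulb had 6 of 6 neuroblast and 7 of 9 neuron genes lower, and no cycling or microglia gene passed. The summed neuroblast list went from 2015 to 2522 at P7 to 269 to 348 at P14 in cortex, from 1449 to 2867 to 606 to 1030 in hippocampus, and from 8166 to 17625 to 2391 to 4161 in olfactory bulb. The summed cycling list, which dividing cells of any type express, went from 1401 to 1752 to 270 to 383 in cortex, without overlap. From P1 to P7 the microglia genes rose in 3 of 3 tested cases in hippocampus and in olfactory bulb and in 1 of 6 in cortex, while neuroblast genes fell in 2 of 6, 3 of 6 and 2 of 6. No gene of the neuroblast list was at 0 in all libraries of a developmental group except Dlx1 and Dlx5 in hippocampus P14. The part of these cells in the members' values was not tested.

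Scaling mattered in cortex. The median gene differed by -0.27 between P14 and P1 on the deposited scale and by 0.01 after TMM scaling, against -0.29 and -0.26 in hippocampus. Calls over all genes went from 2843 higher and 4765 lower to 3801 and 3655 for P14 against P1, from 2197 and 3696 to 3034 and 2718 for P14 against P7, and from 1850 and 2135 to 2165 and 1668 for P7 against P1. After TMM scaling, Pdgfra (-0.57, limma adjusted p 0.0864) and Olig2 (-0.37, limma adjusted p 0.0646) in cortex were no longer called lower at P14 than at P1. Between P7 and P14, Cspg4 (-1.05, limma adjusted p 0.0664) and Olig1 (-0.14, limma adjusted p 0.302) were no longer called after it, and Olig1 lost its call without P7 replicate 1, P7 replicate 2 or P14 replicate 1 (-0.28, -0.25 and -0.30). Settings other than scaling ended some calls too. With no filter on low values, cortical Sox10 from P1 to P7 (limma adjusted p 0.0714), cortical Cspg4 from P7 to P14 (limma adjusted p 0.0548) and hippocampal Cspg4 from P1 to P14 (limma adjusted p 0.0506) were not called, at the same differences. With a pseudocount of 0.1 the hippocampal rise of Sox10 was 3.08 (limma adjusted p 0.141). Without the trend in limma the hippocampal rise of Pdgfra had an adjusted p of 0.0538, and cortical Cspg4 and Olig1 from P7 to P14 had adjusted p of 0.064 and 0.0619. Quantile normalization left hippocampal Cspg4 at -0.33 between P1 and P14 (limma adjusted p 0.545), and it was also lost with only those ages in the fit (limma adjusted p 0.114). By edgeR and DESeq2, cortical Pdgfra from P1 to P14 (-0.52 and -0.51), Cspg4 from P7 to P14 (-0.87 and -0.86) and Olig1 from P7 to P14 (-0.20 and -0.18) were not called. With cortex P14 replicates 1 and 2 alone, Sox10 (0.74, limma adjusted p 0.0923) lost its call between P1 and P14, Olig1 lost its call between P7 and P14 (-0.35, limma adjusted p 0.0653), and Cspg4 gained one between P1 and P14 (-1.45, limma adjusted p 0.00876). Called differences kept at over 1.5 times the size with these replicates were Cspg4 from P7 to P14 (-1.99) and Pdgfra from P1 to P14 (-1.30). Others that stayed called but moved by over 1.5 times between P1 and P14 in cortex were Olig2 by DESeq2 (-0.41) and Sox10 after quantile normalization (1.58), where C1ql1 also gained a call (1.47, limma adjusted p 0.00723). After quantile normalization the hippocampal falls from P7 to P14 were -1.81 for Cspg4 and -1.73 for Sox10. A pseudocount of 8 shrank cortical Neu4 (0.74 from P1 to P7 and 1.54 from P1 to P14), hippocampal Sox10 (1.62 and then -1.82) and Cspg4 (-0.89 from P1 to P14), and Sox10 of olfactory bulb (1.60 from P1 to P7 and 1.35 from P1 to P14), all still called.

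The balance between members within a library does not depend on the library factor. Reads of Gpr17 per read of Pdgfra were 0.131 to 0.217 at P1, 0.278 to 0.350 at P7 and 0.592 to 1.96 at P14 in cortex. The ratio was 0.0452 to 0.103, then 0.135 to 0.211, then 0.421 to 1.17 in hippocampus, and 0.0418 to 0.0839, then 0.206 to 0.214, then 0.327 to 3.09 in olfactory bulb. In each region the 3 ages rose in order without overlap, and the levels are not per length, so only the change can be read. At P28 the ratio ranged from 0.0556 to 1.52 over the 20 libraries, and control and cKO overlapped in cortex, hippocampus and olfactory bulb.

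The neighbours Olig1 and Olig2 also shifted against each other. Reads of Olig1 per read of Olig2 were 3.33 to 5.20 at P1, 2.15 to 3.46 at P7 and 4.57 to 6.36 at P14 in cortex. They were 0.961 to 1.38, 1.40 to 2.92 and 4.18 to 5.75 in hippocampus and 1.28 to 1.45, 1.29 to 1.44 and 2.99 to 3.55 in olfactory bulb. All P14 libraries lay above all P7 libraries of their region. P1 differed between regions, the lowest cortex P1 library lying above every hippocampus and olfactory bulb P1 library. At P28 the ratio was 0.477 to 3.49 over all libraries, the lowest in olfactory bulb control replicate 2, the library low in Rn45s, and without it 0.949 or more. No p is given for these ratios, which were read after their members' values.

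**Figure D3:**
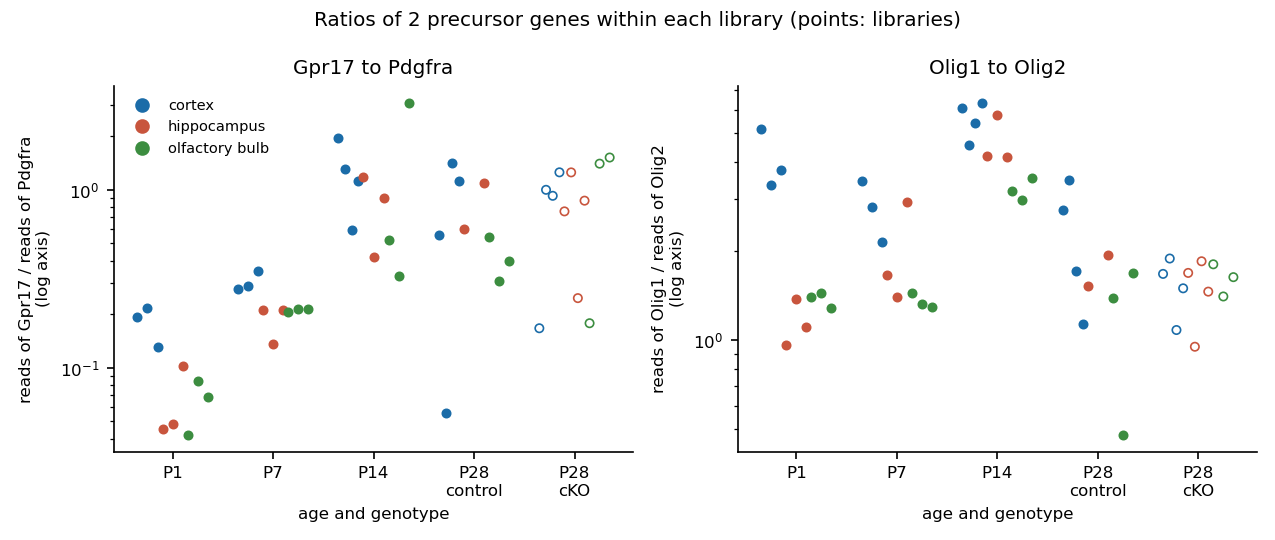
Reads of Gpr17 per read of Pdgfra and reads of Olig1 per read of Olig2 in each library (vertical axes, log scale) by age and genotype (horizontal axis), with open circles for cKO. The first ratio climbs at each age from P1 to P14 in the 3 regions, and the second is higher in every P14 library than in any P7 library of the same region.

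Genes of neighbouring stages were counted from lists with no member in them. Of other precursor genes, 5 of 14 rose and 2 fell from P1 to P7 in cortex, 4 rose and none fell in hippocampus, and 6 rose and none fell in olfactory bulb. Lhfpl3, Tnr, Xylt1 and Nkx2-2, the last a homeobox factor of the lineage, were among those that rose in each region. From P7 to P14, 9 of 14 fell and none rose in cortex, 6 fell and none rose in hippocampus, and 3 fell and 3 rose in olfactory bulb. The shares of all tested genes that fell and rose were 31.3% and 18.6%, 17.7% and 12.5%, and 26.6% and 20.4%. Vcan, a proteoglycan that precursors and other neural cells make, fell in each region over that step, from a mean of 2272 to 404 in cortex (log2 difference -2.50, SE 0.11, limma adjusted p 6.8e-09), from 3874 to 804 in hippocampus (-2.29, SE 0.17, limma adjusted p 1.24e-05) and from 4360 to 785 in olfactory bulb (-2.41, SE 0.31, limma adjusted p 1.08e-04). The list held genes that rose too: Sox8, a relative of Sox10, went from 160 to 428 in olfactory bulb (1.43, SE 0.29, limma adjusted p 0.00197).

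Genes of committed precursors and new oligodendrocytes, such as Enpp6 and Bcas1, rose more often than they fell over the whole interval. From P1 to P14, 8 of 12 rose and 1 fell in cortex, 5 of 10 rose and 2 fell in hippocampus, and 6 of 10 rose and 2 fell in olfactory bulb, with median log2 differences of 1.66, 0.69 and 2.11 against -0.27, -0.29 and -0.24 over all tested genes. Enpp6, Bcas1, Itpr2, Tcf7l2 and Sirt2 rose in all 3 regions. Itpr2, a calcium release channel that astrocytes also express, went from a mean of 21.2 to 958 in olfactory bulb (log2 difference 5.44, SE 0.29, limma adjusted p 1.6e-07). Mature oligodendrocyte genes rose in 10 of 11, 6 of 6 and 6 of 8 tested cases, and their summed count went from 375 to 454 at P1 to 15880 to 26696 at P14 in cortex. Opalin, a gene of late myelinating cells, had no read at P1 in any region and none at P14 in hippocampus or olfactory bulb, and Mog had none at P14 in hippocampus. The part of such RNA in the precursor gene values was not tested.

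A list of 7 genes did not move as 1 block. It held Id2, Id4, Hes5, Hes1, Sox5 and Lingo1, known to hold back oligodendrocyte differentiation, and also Tcf4, for which that role is not claimed. From P1 to P14, 4 of 7 rose and 1 fell in cortex, 3 rose and 2 fell in hippocampus, and 5 rose and none fell in olfactory bulb. Id2, an inhibitor of helix-loop-helix factors such as Olig1 and Olig2, rose in each region, from a mean of 213 to 755 in cortex (1.82, SE 0.13, limma adjusted p 6.51e-08), 407 to 846 in hippocampus (1.05, SE 0.17, limma adjusted p 3.90e-04) and 325 to 698 in olfactory bulb (1.11, SE 0.26, limma adjusted p 0.00412). Astrocytes express several genes of this list as well. Astrocyte markers rose in 9, 10 and 10 of 10 cases between P1 and P14.

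**Figure D4:**
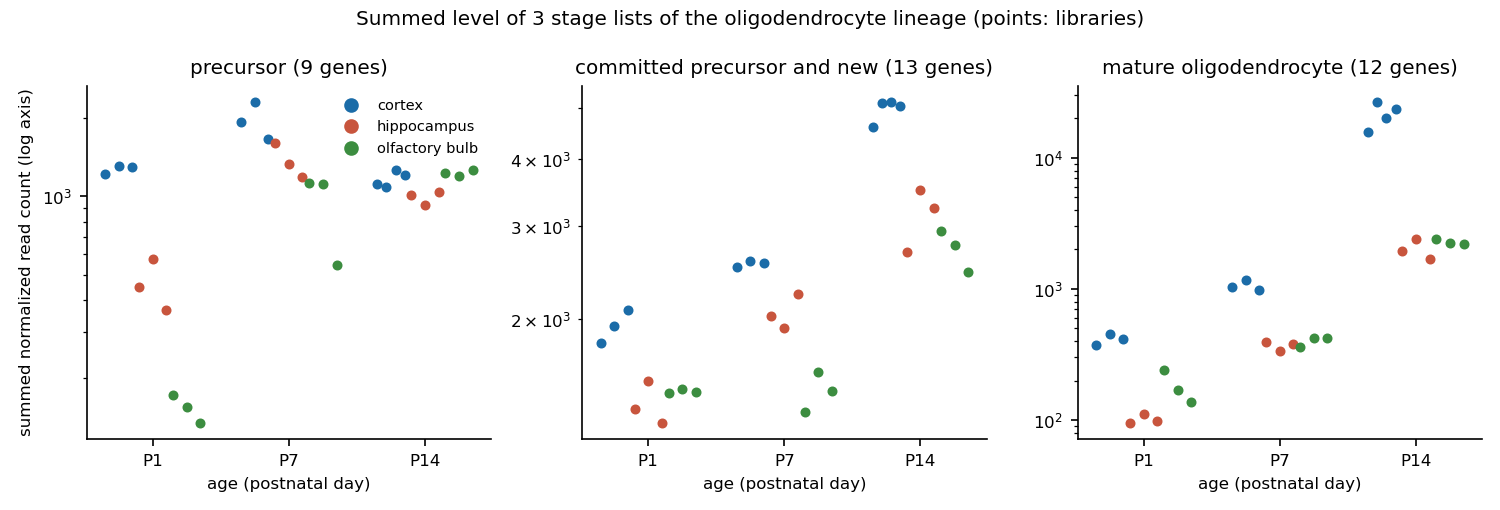
Summed normalized read count per library (vertical axes, log scale) of the 9 precursor genes, 13 genes of committed precursors and new oligodendrocytes, and 12 mature oligodendrocyte genes at P1, P7 and P14 (horizontal axes), by region. Mature genes reach their highest sums at P14 in each region, while the precursor sum in cortex is highest at P7, at 1658 to 2304. It is highest at P7 in hippocampus too (1190 to 1607), and at P14 in olfactory bulb (1195 to 1258). That olfactory bulb P14 sum is mostly Olig1 (mean 726) and Olig2 (mean 224), while Pdgfra and Cspg4 are lower there than at P7.

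By Pearson's r over the 28 developmental libraries, after centring each table, the genes most like Pdgfra outside the set were Sulf2 (0.79), Inpp5j (0.78), Pomgnt2 (0.77), Slc9a9 (0.77) and Xbp1 (0.77), among 10838 genes. Within the set r with Pdgfra was 0.79 for Cspg4, 0.55 for Sox10, 0.48 for Olig2, 0.48 for Gpr17 and 0.16 for Olig1. Libraries of a group share age and region, and depth ranged from 1773226 to 15008466 reads, so r is a description.

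The second comparison asked whether precursor genes differ between Gabbr1 control and cKO preparations at P28. No member was called in any region, and control and cKO libraries overlapped for every tested member. The share of all genes called was 0.00982% in cortex and 0% in both other regions. The targeted gene Gabbr1 was thus called in cortex only, and not there without the trend in limma (limma adjusted p 0.0699). It passed in hippocampus without cKO replicate 2 (-2.10, limma adjusted p 0.0296) and in olfactory bulb by DESeq2 (-1.53, adjusted p 0.0416). A member that is not called can therefore still differ. Control and cKO did not overlap for 1.89% of tested genes in cortex, for 15.0% in hippocampus and for 10.01% in olfactory bulb, and none of the members was among them. At an unadjusted limma p under 0.05 there was 1 member in cortex (Olig2) and none in hippocampus or olfactory bulb, against 2.17%, 2.54% and 3.02% of all tested genes. edgeR and DESeq2 called 0 members in each region. At an unadjusted p under 0.05 each tool had 2 members in cortex and none in the other regions. Over all 10188 genes tested in cortex, 226 by edgeR and 247 by DESeq2 had such a p. In cortex P28 data simulated with 1 spread for all genes, the test recovered 51.6% of 4-fold and 4.17% of 2-fold changes, so smaller differences would mostly be missed. Members differed in spread in cortex, with an SE of 0.25 for Olig1, 1.14 for Gpr17, 1.18 for Sox10 and 1.21 for C1ql1. These shares therefore do not hold for each member. Hippocampus and olfactory bulb at P28 were not simulated.

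In cortex at P28 Olig2 was 75.0, 64.2, 96.5 and 127 in control and 200, 148, 267 and 114 in cKO libraries. cKO replicates 1 to 3 were above every control, and cKO replicate 4 was not. The log2 difference was 0.97 (SE 0.30, limma unadjusted p 0.00597, adjusted p 1). Within the first round of deposit it was 1.51 (3 cKO, 2 control) and within the second 0.04 (1 cKO, 2 control). Olig1 was 206, 224, 166 and 145 in control and 334, 279, 288 and 171 in cKO (0.51, SE 0.25, limma adjusted p 1), again with cKO replicate 4 inside the control range.

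Cortex libraries of the second round differed in 2 of the 7 members tested, a comparison chosen after seeing the data. Sox10 was 2.11 and 0 in first-round controls, 40.6 and 28.3 in second-round controls, 2.24, 7.34 and 19.2 in first-round cKO and 24.9 in the second-round cKO library. Every second-round value was above every first-round value, and with genotype in the fit Sox10 was 3.18 higher in the second round (limma adjusted p 0.0343). Gpr17 was 44.4 and 1.17, then 116 and 122, in control, and 5.61, 19.9 and 119, then 142, in cKO, 3.12 higher (limma adjusted p 0.027) although 1 first-round cKO library, replicate 3, lay between the second-round controls. Of all tested genes 3.87% were higher and 5.76% lower in the second round. Pdgfra (1.25, limma adjusted p 0.141) and the other members did not pass, and Olig1 had a difference of the opposite sign (-0.62, limma adjusted p 0.0525). Mature oligodendrocyte genes were higher in 10 of 12 cases, committed precursor genes in 5 of 11, other precursor genes in 2 of 14, microglia genes in 4 of 5, fibroblast genes in 3 of 4, cycling genes in 2 of 4, and pericyte and neuron genes in 1 of 4 and 1 of 6. Astrocyte genes were lower in 3 of 10 and higher in none, so the shift was not limited to the oligodendrocyte lineage, and the summed mature list was 2811 to 7326 in first-round and 10042 to 16460 in second-round libraries. The round holds 2 controls and 1 cKO library, and no member was called for genotype with the round as a covariate or in the first round alone.

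**Figure D5:**
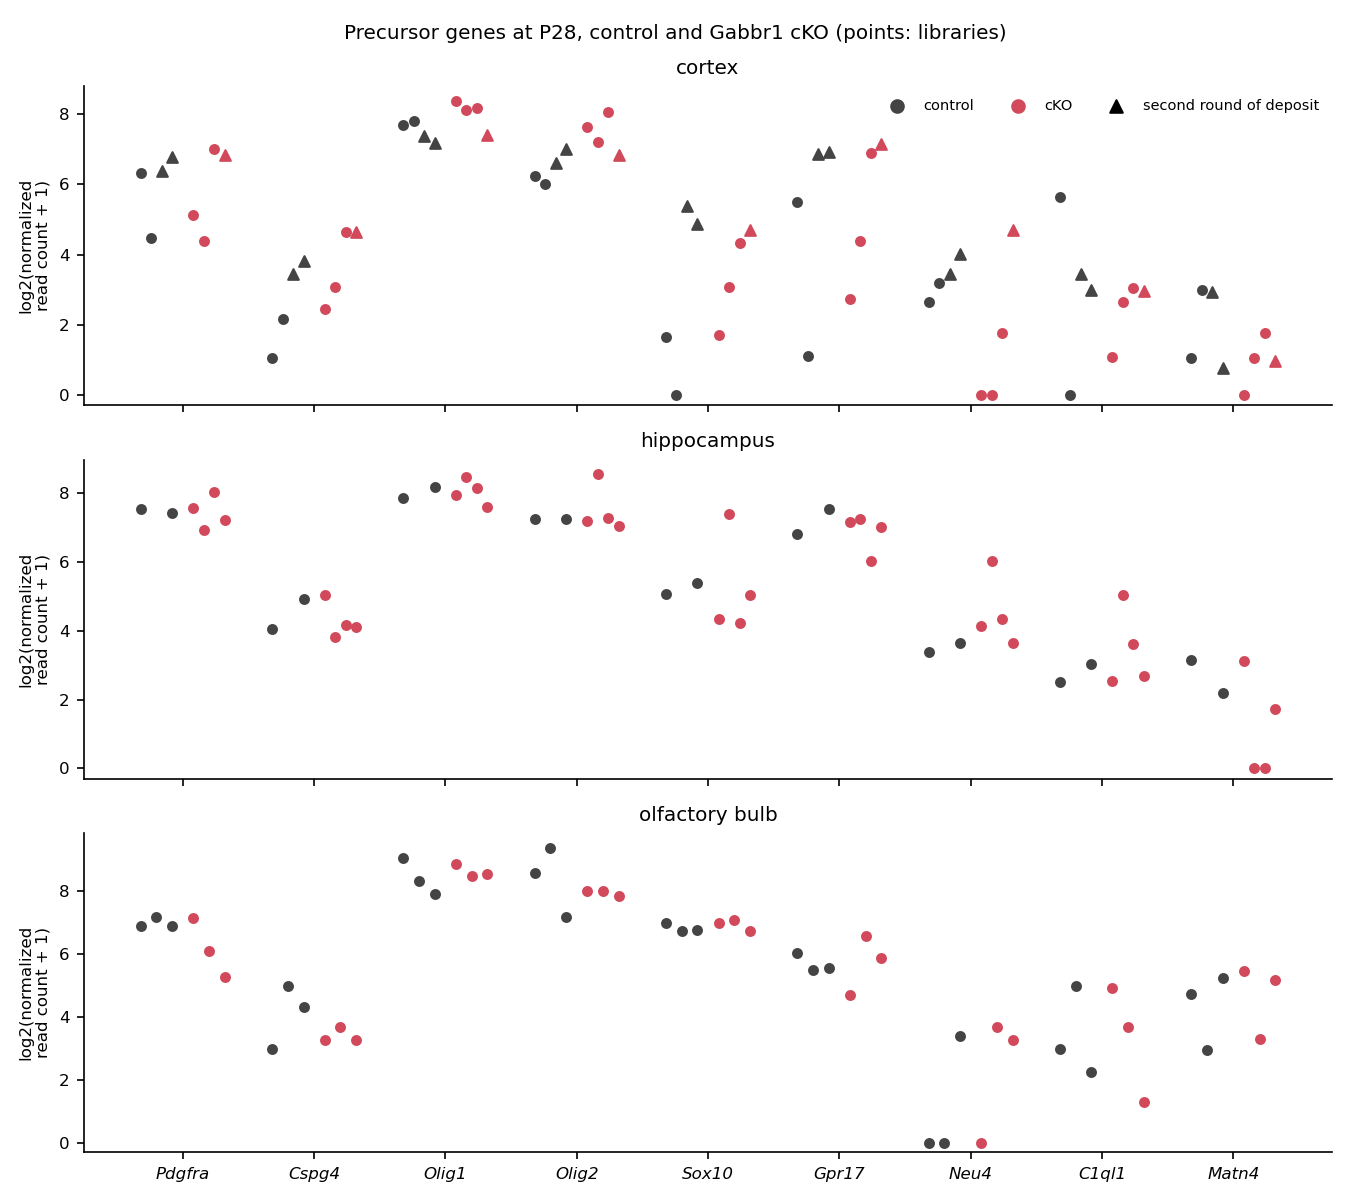
log2(normalized read count + 1) at P28 (vertical axes) of the 9 precursor genes (horizontal axis) in control and cKO libraries of each region, with triangles for cortex libraries of the second round of deposit. Control and cKO points overlap for each gene tested, and cortex Sox10 is high in all 3 triangles.

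In hippocampus Pdgfra was 182 and 169 in control and 187, 120, 259 and 147 in cKO, a log2 difference of -0.04 (SE 0.37, limma adjusted p 0.99). Olig2 was 149 and 149 in control and 142, 368, 151 and 129 in cKO, with the library low in Rn45s, cKO replicate 2, above all others. Its log2 difference of 0.27 (SE 0.45, limma adjusted p 0.945) became -0.08 without that library. Sox10 was 32.1 and 40.9 in control and 19.4, 165, 17.6 and 31.6 in cKO, and without cKO replicate 2 its difference went from 0.02 to -0.69 (limma adjusted p 0.85). Neu4 was 9.39 and 11.6 against 16.5, 63.6, 19.2 and 11.6, a difference of 1.02 (SE 0.84, limma adjusted p 0.936) and of 0.52 without that library. The same library had the highest summed mature oligodendrocyte count of the table, 21704. Gpr17 was 110 and 184 in control and 141, 150, 63.9 and 128 in cKO (-0.30, limma adjusted p 0.943), and Cspg4 ranged from 13.0 to 32.0 over the 6 libraries.

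In olfactory bulb Pdgfra was 118, 145 and 116 in control and 140, 66.7 and 37.7 in cKO, with a log2 difference of -0.82 (SE 0.45, limma adjusted p 0.877). The cKO group held the 2 lowest values and also a value inside the control range. Olig2 was 382, 660 and 143 against 254, 254 and 228, and the control highest at 660 was the library low in Rn45s, without which the difference went from -0.43 to 0.07. Sox10 was 126, 106 and 107 against 125, 133 and 104 (0.09, SE 0.29, limma adjusted p 0.95). Matn4 passed the minimum mean only in this table, at 25.3, 6.81 and 36.9 in control and 43.0, 8.96 and 35.5 in cKO (0.35, SE 0.80, limma adjusted p 0.93). C1ql1 spread from 1.45 to 30.6, and Neu4 had no read in 3 of 6 libraries and was not tested.

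Across the 20 P28 libraries, after centring each group, the genes most like the mean of the 7 members tested in all 3 tables were Cldn12 (Pearson's r 0.92), Zcchc11 (0.91), Maml1 (0.90), Slc26a11 (0.89) and Map3k13 (0.89), among 9891 genes. This is again a description, over libraries of 1859933 to 6352384 reads. Centring by group did not remove the pair of libraries low in Rn45s or the rounds of deposit in cortex, and their part in r was not tested.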

How the data were processed

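Astrocyte RNA from 3 mouse brain regions was measured by RNA-seq in 48 libraries, made per the labels' protocols with a low-input total RNA kit. The deposited tables hold a normalized signal: in every column 100% of values were whole multiples (within 0.01) of 1 step per library, so each is a read count over 1 factor, and reads were recovered by dividing by the step. A step close to 1 in olfactory bulb P28 cKO replicate 2 makes wholeness a weak check for it. The submitters' processing notes name mm10, STAR 2.5.0a, DESeq2 1.20.0, FastQC and MultiQC, with no roles. The counting program, annotation and strand are not given in the sources used here. A set of 27 symbols stored as dates in 5 tables was put back by row position in the remaining table, and none is a member. Column names tied each of the 48 libraries to its labels. Replicate numbers follow accession order and pair nothing.

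The tables were scaled separately, so tests stayed within a table: limma 3.58.1 in R 4.3.3 (lmFit, eBayes with trend) on log2(value + 1), genes with a mean of at least 10, Benjamini-Hochberg adjustment over all genes tested, threshold 0.05. A log2 difference on this scale understates changes of low genes. Each developmental fit used all 3 ages. On simulated cortex data for P14 against P1 the procedure recovered 99% of 4-fold and 63.6% of 2-fold changes, and for olfactory bulb 96% and 27%. Simulations gave all genes of a table the same spread. edgeR 4.0.16 and DESeq2 1.42.0 were run on recovered reads. Alternatives were TMM, quantile and median-ratio scaling, a minimum mean of 50 or none, pseudocounts 0.1 and 8, no trend, only 2 ages, the deposit round, cortex P14 replicates 1 and 2 alone, and leaving out each library. Intervals were not computed, and limits for counts of 0 (3 reads) cover counting error only. The members and all gene lists were chosen with earlier results of these data known. The round comparison and the counts of genes highest at P7 or rising at each age were chosen after seeing the data. All 9 members are named, other genes by list or by likeness rank, and list genes singled out were the 3 with the highest mean or chosen after their values were seen.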

Additional observations from a re-analysis of the deposited data

Results flagged for a closer look

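In hippocampus at P28, cKO replicate 2 was far from the other 3 cKO libraries for Olig2 (368 against 129 to 151), Sox10 (165 against 17.6 to 31.6) and Neu4 (63.6 against 11.6 to 19.2). This library also had the low Rn45s share, and the part of that composition in these values was not tested. In cortex at P28, Neu4 was 24.9 in cKO replicate 4 against 0 to 2.40 in the other cKO libraries, and replicate 4 is the cKO library of the second round of deposit. These are 4 of 36 combinations of a gene and a group looked at for a library far from the rest by Dixon's criterion. Chance alone meets it in about 1 of 20 for normally distributed values, and counts near 0 are not such values. The hippocampal flags also come from 1 library and are not independent, so the number of flags cannot be set against that share.

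For 3 gene and age comparisons, the libraries of 1 region moved wholly one way and those of another the opposite way. Olig2 was lower at P14 than at P7 in cortex and higher in olfactory bulb, with a difference between the log2 differences of -2.20. Between P1 and P14 Olig2 again went down in cortex and up in olfactory bulb, by -3.63 relative to each other. Neu4 went up from P7 to P14 in cortex and down to 0 reads in hippocampus, 2.53 apart, where the hippocampal P7 libraries held 1, 7 and 1 reads. These differences between regions were not tested, because the tables were scaled separately. After TMM scaling the cortical fall of Olig2 between P1 and P14 was -0.37 (limma adjusted p 0.0646).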

How the results depend on the processing

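Every direction given for a called member held under the alternatives run, and each value below that changed sign belonged to a member not called. The number of precursor genes called moved by over 1.5 times in these cases. With a minimum mean of 50 it was 3 for cortex P7 against P1, 3 for cortex P14 against P1, 2 for hippocampus P7 against P1 and 1 for hippocampus P14 against P1, since fewer members were tested. For cortex P14 against P1 it was 3 under TMM scaling and 3 under median-ratio scaling. With no filter it was 6 for hippocampus P14 against P7, the further 3 being Neu4, C1ql1 and Matn4. Leaving out each library gave 3 to 6 for cortex P7 against P1, 2 to 4 for cortex P14 against P7 and 2 to 4 for hippocampus P7 against P1. Except where fewer genes or samples were used, the cause was not tested.

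The log2 differences that changed sign in cortex were, for P14 minus P7, Gpr17 at 0.069 (TMM), 0.056 (median-ratio), 0.047 (edgeR) and 0.068 (DESeq2), C1ql1 at 0.052 (TMM), 0.51 (quantile), 0.040 (median-ratio) and 0.017 (DESeq2), and Sox10 at -0.19 with P14 replicates 1 and 2 alone. Olig1, P14 minus P1, was 0.10 (TMM), 0.073 (median-ratio), 0.042 (edgeR) and 0.063 (DESeq2). In hippocampus, P14 minus P1, Olig2 was 0.0096 (median-ratio), 0.033 (edgeR) and 0.047 (DESeq2), and Sox10 1.06 (quantile). In olfactory bulb, P14 minus P7, Sox10 was 0.027 (quantile) and Gpr17 0.040 (edgeR) and 0.013 (DESeq2).

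At P28, cKO minus control, cortex Pdgfra was 0.027 (edgeR), 0.018 (DESeq2), 0.16 with the deposit round as a covariate and 0.11 in the first round alone. Cortex Sox10 was -0.0052 (pseudocount 8), -0.39 (edgeR) and -0.40 (DESeq2), and Gpr17 -0.024 (pseudocount 8). In hippocampus Olig1 was -0.0046 (TMM) and -0.023 (quantile), Sox10 -0.095 (quantile) and Pdgfra 0.022 (edgeR) and 0.022 (DESeq2). In olfactory bulb C1ql1 was 0.016 (pseudocount 8), 0.0995 (edgeR) and 0.062 (DESeq2).

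Leaving out each library moved through 0, in cortex P14 minus P7, C1ql1 (-0.39 to 0.18), Gpr17 (-0.27 to 0.028) and Sox10 (-0.13 to 0.26). The same held for hippocampus Olig2, P14 minus P1 (-0.20 to 0.22), and in olfactory bulb for Cspg4, P14 minus P1 (-0.21 to 0.73), and Gpr17, P14 minus P7 (-0.46 to 0.14). At P28 the ranges were, in cortex, Gpr17 -1.14 to 1.04, Pdgfra -0.66 to 0.34 and Sox10 -0.52 to 1.28. In hippocampus they were Cspg4 -0.65 to 0.22, Gpr17 -0.68 to 0.068, Olig1 -0.16 to 0.19, Olig2 -0.079 to 0.42, Pdgfra -0.24 to 0.13 and Sox10 -0.69 to 0.36. In olfactory bulb they were C1ql1 -0.91 to 0.90, Gpr17 -0.42 to 0.52, Matn4 -0.32 to 1.02, Olig1 -0.053 to 0.51 and Olig2 -1.03 to 0.068. No paired analysis was possible because replicate numbers follow accession order and mark no shared animal. Depth limits the low genes: in hippocampus P14 no library held more than 8 reads of Cspg4, Sox10, Neu4, C1ql1 or Matn4.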
